A study of Mus musculus with 6 samples.

Results

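Cytotoxic lymphocytes are natural killer (NK) cells and killer T cells. The genes described here are 10 markers of these cells, taken by gene symbol with every probe of each: the granule protease genes Gzma, Gzmb and Gzmk, the pore-forming protein gene Prf1, the granule membrane protein gene Nkg7, the receptor genes Klrd1, Klrk1 and Ncr1, the chemokine gene Xcl1 and the transcription factor gene Eomes. They had 14 probes in all, 4 for Klrk1, 2 for Prf1 and 1 for each of the others, and were 10 of the 16593 genes with a named probe. RNA came from pooled ankle synovium of male DBA/1 mice, a strain that develops arthritis after immunization with collagen. All groups shared the same treatment, begun at an age of 6 to 8 weeks: an injection at the tail base of bovine type II collagen (100 µg) with complete Freund's adjuvant, then a booster in incomplete Freund's adjuvant in a footpad 2 weeks later. The groups differed in the time of sampling, at week 6 (induction), week 9 (peak) and week 15 (resolution), with 2 Illumina bead arrays each. The boosted hind foot was left out. Unimmunized mice were not analysed here. The labels do not say whether the arrays of a week came from separate pools of animals, so every p-value measures the spread between these arrays alone, which may be technical.

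A cytotoxic cell kills by releasing granules onto its target. Perforin, the product of Prf1, opens pores in the target's membrane, and granzymes enter and cleave proteins inside it. Receptors decide when this happens: Klrd1 encodes CD94, which pairs with NKG2 proteins to read the nonclassical MHC molecule encoded by H2-T23, Klrk1 encodes NKG2D, which reads stress ligands, and Ncr1 encodes the NK receptor NKp46. Xcl1 attracts cross-presenting dendritic cells through the receptor Xcr1, and Eomes is a T-box factor that directs the cytotoxic program. In the joint, such cells are found among the lymphocytes that enter inflamed synovium.

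RefSeq promoter windows of GRCm38.p6, which run from 250 bases before to 50 bases after a gene's start, were held for 9 of the 10 members. They are shown for Prf1, Nkg7 and Xcl1, which were above background on every array, and for Gzmb, which was above background on none. Capitals mark GGTGTGA, a core of T-box sites as bound by Eomes, and TGTGGT, a core of Runx sites, on either strand. Both motifs can overlap in sequence, but no matches overlapped in the windows of the members.
Prf1, chr10:61297586-61297885, plus strand: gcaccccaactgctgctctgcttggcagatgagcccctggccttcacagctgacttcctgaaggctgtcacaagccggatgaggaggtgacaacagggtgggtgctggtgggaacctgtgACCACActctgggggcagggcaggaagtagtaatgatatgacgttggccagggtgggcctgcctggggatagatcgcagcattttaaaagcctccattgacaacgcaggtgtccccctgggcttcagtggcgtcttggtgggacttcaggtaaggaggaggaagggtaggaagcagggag
Nkg7, chr7:43436888-43437187, plus strand: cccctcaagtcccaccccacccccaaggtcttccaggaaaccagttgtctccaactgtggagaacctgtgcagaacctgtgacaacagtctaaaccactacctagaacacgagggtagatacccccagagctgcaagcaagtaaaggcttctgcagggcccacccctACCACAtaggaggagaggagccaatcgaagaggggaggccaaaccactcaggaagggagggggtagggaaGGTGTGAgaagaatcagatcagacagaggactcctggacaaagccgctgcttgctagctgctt
Xcl1, chr1:164935473-164935772, minus strand: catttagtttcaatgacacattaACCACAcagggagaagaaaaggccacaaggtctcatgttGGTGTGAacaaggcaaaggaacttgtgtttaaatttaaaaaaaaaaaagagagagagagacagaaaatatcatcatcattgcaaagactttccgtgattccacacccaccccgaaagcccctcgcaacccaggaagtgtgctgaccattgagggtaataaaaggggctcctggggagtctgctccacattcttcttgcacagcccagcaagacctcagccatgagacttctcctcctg
Gzmb, chr14:56262285-56262584, minus strand: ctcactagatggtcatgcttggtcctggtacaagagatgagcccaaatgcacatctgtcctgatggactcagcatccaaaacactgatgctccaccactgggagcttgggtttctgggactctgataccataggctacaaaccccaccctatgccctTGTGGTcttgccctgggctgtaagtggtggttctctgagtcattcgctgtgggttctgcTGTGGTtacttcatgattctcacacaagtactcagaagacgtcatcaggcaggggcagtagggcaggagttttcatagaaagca

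GGTGTGA was found in the windows of 3 of the 9 members, Gzmk, Nkg7 and Xcl1, and in 3.98% of all 32851 windows of the same length. In Nkg7 it began at position -13 relative to the start and in Xcl1 at position -188. TGTGGT was found in 7 of the 9, among them Prf1, Nkg7, Xcl1 and Gzmb, and in 16.8% of all windows. Eomes had neither. These matches describe the letters of the windows and are not evidence of binding.

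The arrays separated the members into those well above background and those at it. An intensity counted as above background, or detected, when fewer than 5% of the background rows of that array reached it. Prf1, Nkg7, Klrd1, Xcl1, Eomes and the brightest Klrk1 probe were detected on all 6 arrays, Gzmk on 4, and Gzma, Gzmb and Ncr1 on 0. The brightest Prf1 probe stood at 7.07 to 26.4 times the upper limit of background, Nkg7 at 9.35 to 18.9 times, Klrd1 at 9.83 to 14.9 times and Xcl1 at 1.56 to 4.09 times. Eomes was close to the limit, at 1.15 to 1.79 times, and Gzmk straddled it at 0.961 to 1.09 times. Probes differ in binding strength, and these ratios therefore give signal over background, not an amount of RNA.

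**Figure D1:**
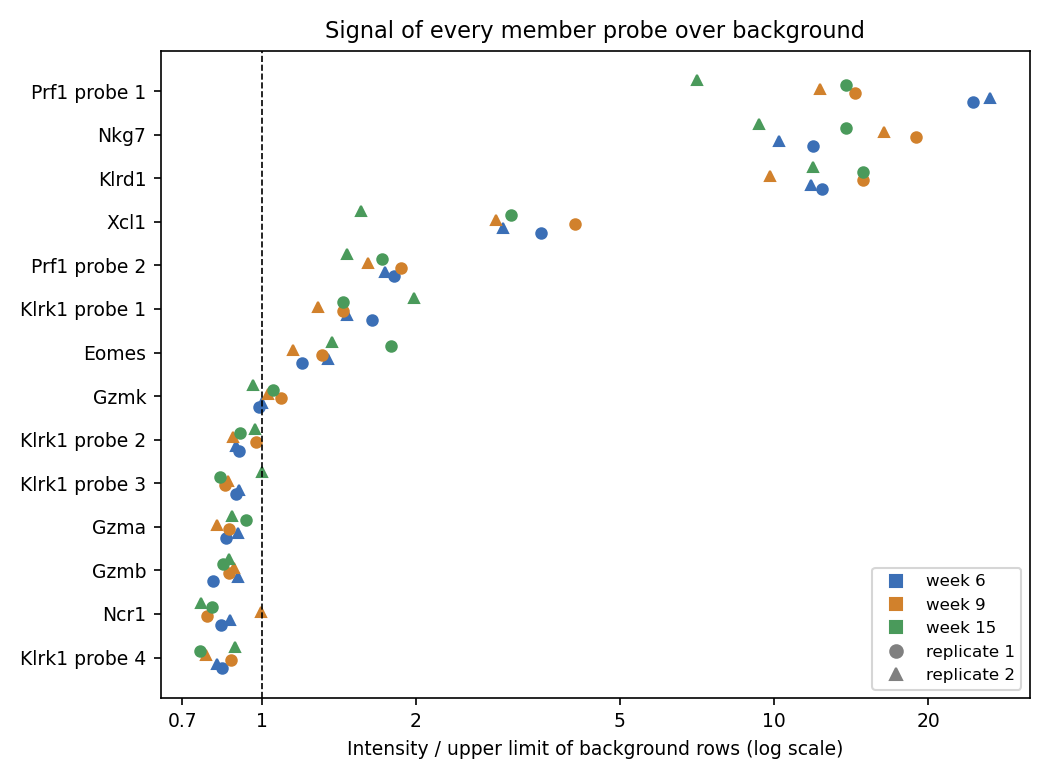
Intensity of each of the 14 probes on each of the 6 arrays, divided by the upper limit of the background rows of that array (log scale), with colours for weeks and symbols for replicates. Prf1 probe 1, Nkg7 and Klrd1 lie at 7.07 to 26.4 times the limit, while Gzma, Gzmb and Ncr1 stay below 1 on all arrays.

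Of the granzymes among the members, Gzma and Gzmb were not above background and Gzmk was near its limit. Gzma, a tryptase that cuts after basic residues, had intensities of 109.7 and 114 at week 6, 107.9 and 103.5 at week 9, and 116.7 and 86.1 at week 15, against background limits of 98.5 to 128.6. Gzmb, which activates caspases in the target, had 103.4 and 113.7, then 107.7 and 111.8, then 104.9 and 85.03. Neither gene had an array above background, so no change could be detected for them at this signal and they were not tested. The second week 15 array was the dimmest, with a mean background of 86.88 against 106.8 to 111.2 on the others.

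Gzmk, a granzyme common in memory CD8 T cells, had log2 signals of 4.97 and 5.07 at week 6, 5.46 and 5.25 at week 9, and 5.28 and 4.81 at week 15. Both week 9 arrays lay above both week 6 arrays, while week 15 overlapped with the other weeks. Between weeks 6 and 9 its log2 change was 0.34, with an interval from -0.15 to 0.82 (limma adjusted p = 0.455). It was 0.08 with the authors' values, 0.11 with no background correction and 0.17 with an offset of 50. Of the 7 other granzyme genes looked up, Gzmm was detected on all 6 arrays, Gzmd on 5 and Gzmn on 3. Gzmc, Gzmf and Gzmg were detected on 0 and Gzme on 1.

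The limma tests, all two-sided, across the whole array called none of the members in any comparison. Of the 10 members, 7 passed the filter of detection on at least 2 arrays and were tested. At an adjusted p under 0.05, 0 of the 7 passed between week 6 and week 9, where 0.354% of all 10167 features did, and 0 between week 9 and week 15, where 1.19% did. Between week 6 and week 15, 0 of the 7 passed against 0.0492% of all features, and in the F test of any change over the 3 weeks 0 against 0.62%. In each of the 3 comparisons 2 of the 7 had an unadjusted p under 0.05, against 16%, 23.2% and 14.4% of all features. The median log2 change of the 7 was -0.04, -0.07 and 0.20, and that of all features 0.04, -0.08 and -0.02. With shares of called features this low, a count of 0 among 7 genes lies near the background. The comparisons share arrays: week 6 against 9 and week 6 against 15 have the week 6 arrays in common, and both comparisons of week 15 its arrays.

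**Figure D2:**
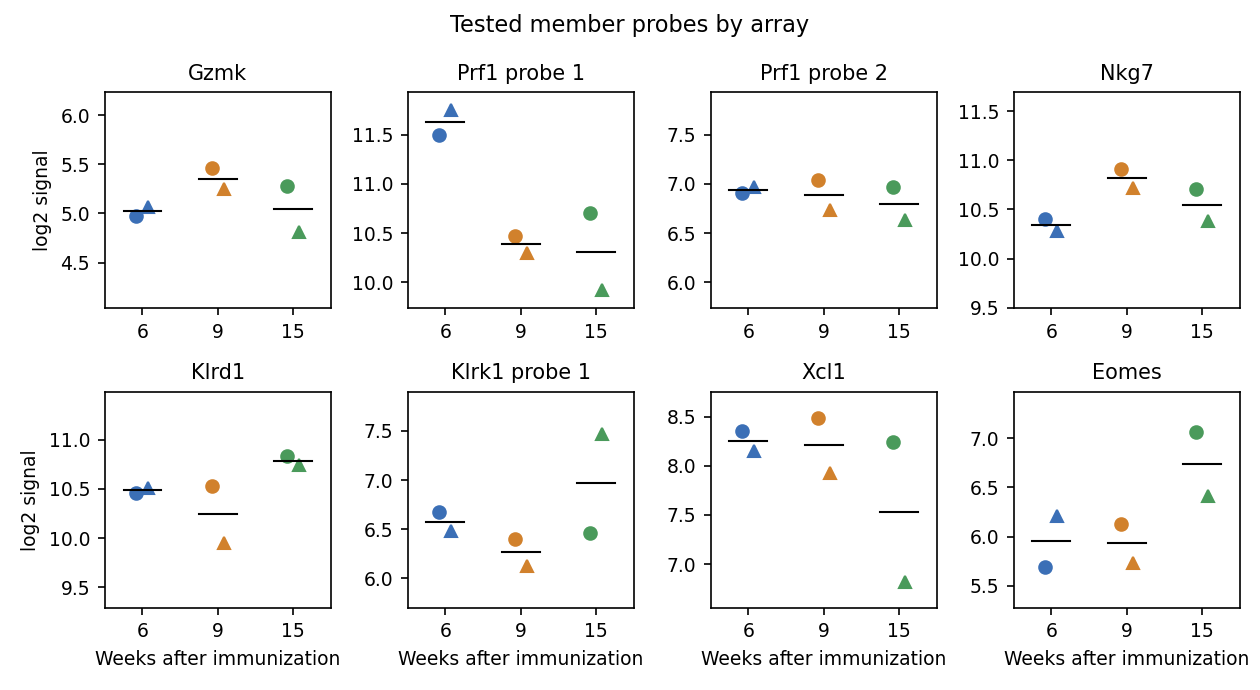
Normalized log2 signals of the 8 tested probes by week after immunization, with a circle for replicate 1, a triangle for replicate 2 and a bar for the mean of the 2 arrays. Every panel spans the same range of log2 units. Prf1 probe 1 lies at 11.50 and 11.75 at week 6 and at 10.47 and 10.30 at week 9, while Prf1 probe 2 lies between 6.63 and 7.04 throughout.

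Of the tested members, Prf1 had the widest log2 change at week 9 and at week 15 against week 6, on 1 of its 2 probes and short of the threshold. On the brighter probe, ILMN_2960700, the log2 signal was 11.50 and 11.75 at week 6, 10.47 and 10.30 at week 9, and 10.70 and 9.92 at week 15. Both arrays of week 9 and both of week 15 lay below both week 6 arrays, and week 15 overlapped with week 9. In deposited intensity, this was 3139 and 3351, then 1796 and 1560, then 1722 and 696. The log2 change from week 6 to week 9 was -1.24 with a 95% interval from -1.88 to -0.60 (limma adjusted p = 0.13). That is a signal 2.36-fold lower at week 9. At week 15 against week 6 it was -1.31, with an interval from -1.95 to -0.67 (limma adjusted p = 0.149), and at week 15 against week 9 it was -0.07.

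The other Prf1 probe, ILMN_1228333, stood at 1.47 to 1.87 times the background limit. Its log2 signal was 6.91 and 6.97 at week 6, 7.04 and 6.73 at week 9, and 6.97 and 6.63 at week 15, with all weeks overlapping. Its log2 change from week 6 to week 9 was -0.06 with an interval from -0.52 to 0.41, and from week 6 to week 15 -0.14 with an interval from -0.61 to 0.33. The intervals of the 2 probes do not overlap in either of these comparisons, and the difference between the probes was not tested. The probe sequences were not used here, so which part of the transcript each probe reads was not examined. When the fit held only the 4 arrays of week 6 and week 9, the brighter probe passed with an unchanged log2 change of -1.24 (limma adjusted p = 0.039). In that fit 171 of all features passed in place of 36.

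Nkg7, whose product sits in the membrane of cytotoxic granules and aids their release, had its highest signals at week 9. Its log2 signal was 10.40 and 10.28 at week 6, 10.91 and 10.72 at week 9, and 10.71 and 10.38 at week 15. Both week 9 arrays were above those of week 6 and narrowly those of week 15. The log2 change was 0.47 with an interval from 0.04 to 0.91 from week 6 to week 9 (limma adjusted p = 0.288) and -0.27 with an interval from -0.71 to 0.16 from week 9 to week 15 (adjusted p = 0.394).

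The genes of the CD3 chains of the T cell receptor complex, Cd3d, Cd3e and Cd3g, give 1 measure of T cell RNA on the same arrays, chosen for this purpose after values were seen. From week 6 to week 9 their mean log2 signals rose, from 12.16 to 12.45, 11.54 to 12.27 and 12.56 to 13.08. Of the 19 tested T cell markers, 13 had a positive and 6 a negative log2 change there, with a median of 0.23. The differences below therefore depend on which T cell genes are taken. In bulk tissue, fewer cells of a type and less RNA per cell cannot be told apart. The log2 signal of Nkg7 minus the mean of the 3 chains was -1.69 and -1.80 at week 6, -1.84 and -1.73 at week 9, and -1.75 and -1.87 at week 15. The weeks overlap in these 6 values, of which only the differences between arrays can be read, since probes differ in binding. For the brighter Prf1 probe the same difference was -0.59 and -0.33 at week 6, -2.28 and -2.15 at week 9, and -1.75 and -2.33 at week 15. Week 6 stood apart from both later weeks, and against the chains the log2 change of this probe was -1.75 at week 9 and -1.58 at week 15. For Klrd1 the difference was -1.63 and -1.57, then -2.22 and -2.50, then -1.62 and -1.51, with both week 9 arrays below the other 4. The same held for Klrk1 (-6.35 and -6.32 at week 9) and Eomes (-6.61 and -6.72 at week 9). For Gzmk and Xcl1 both week 9 values lay below both week 6 values. As the chains themselves rose, a gene with an unchanged signal falls against them. The share of all features that fall in this way was not examined. The Klrd1 signals themselves overlapped between weeks 6 and 9, with a log2 change of -0.24 (limma adjusted p = 0.617). None of these differences was tested.

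**Figure D3:**
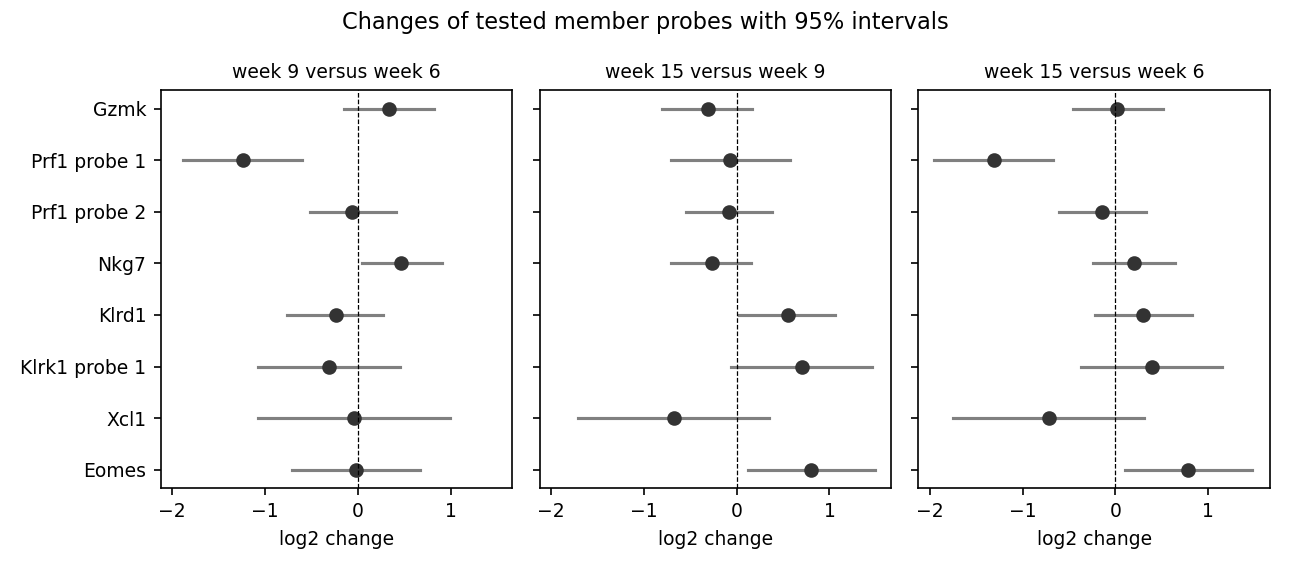
Log2 changes of the 8 tested probes in the 3 comparisons (points, later week minus earlier week) with their 95% intervals from limma (lines). For Prf1 probe 1 the intervals of week 9 and of week 15 against week 6 lie below 0, from -1.88 to -0.60 and from -1.95 to -0.67, while those of Prf1 probe 2 include 0.

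Among the receptors, Klrd1 was far above background on every array. Its log2 signal was 10.46 and 10.51 at week 6, 10.53 and 9.95 at week 9, and 10.83 and 10.74 at week 15. The week 15 arrays were above all others, and week 9 overlapped with week 6. The log2 change was 0.55 with an interval from 0.03 to 1.06 from week 9 to week 15 (limma adjusted p = 0.198) and 0.30 with an interval from -0.22 to 0.82 from week 6 to week 15 (adjusted p = 0.553).

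Klrk1 was detected on all arrays by its brightest probe only, with log2 signals of 6.67 and 6.48 at week 6, 6.40 and 6.13 at week 9, and 6.46 and 7.47 at week 15. The second week 15 array stood highest, and the first lay within the range of the earlier weeks. The log2 change from week 9 to week 15 was 0.70 with an interval from -0.06 to 1.46 (limma adjusted p = 0.24), and 0.28 with the authors' values. Of its other 3 probes, 2 were detected on 0 arrays and 1 on that second week 15 array alone, at a detection p of 0.0486. Ncr1, the most NK-restricted of the members, had intensities of 107.2 and 110 at week 6, 97.63 and 126.5 at week 9, and 100.1 and 75.17 at week 15, none of them above background. Its highest value, on the second week 9 array, had a detection p of 0.0513.

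The values of Xcl1 at week 15 differed widely. Its log2 signal was 8.35 and 8.15 at week 6, 8.49 and 7.93 at week 9, and 8.24 and 6.82 at week 15. The first 5 values lie close together, and the second week 15 array lies below them all. The log2 change from week 6 to week 15 was -0.72 with an interval from -1.75 to 0.31 (limma adjusted p = 0.483). It was -0.38 with the authors' values and -0.01 without that array. The receptor of its product, Xcr1, was detected on 1 array and was not tested.

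Eomes had log2 signals of 5.69 and 6.21 at week 6, 6.13 and 5.73 at week 9, and 7.06 and 6.41 at week 15. Both week 15 arrays were above the 4 earlier ones, which overlapped among themselves. The log2 change was 0.80 with an interval from 0.12 to 1.49 from week 9 to week 15 (limma adjusted p = 0.169) and 0.78 with an interval from 0.10 to 1.47 from week 6 to week 15 (adjusted p = 0.3). With the authors' processed values these were 0.27 and 0.26. Tbx21, the related T-box factor T-bet, was detected on all arrays, between 6.27 and 6.66.

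Groups that do not overlap were common over the whole array. Between weeks 6 and 9, 2 of the 7 tested members (Gzmk and Nkg7) had both later arrays above both earlier ones and 2 (Prf1 and Klrk1) had them below, as did 32.6% and 25.6% of all features. From week 9 to week 15 it was 3 above (Klrd1, Klrk1 and Eomes) and 1 below (Nkg7), against 22.7% and 32.2%. Between weeks 6 and 15 it was 2 above (Klrd1 and Eomes) and 1 below (Prf1), against 19.7% and 24.3%. The percentages of features called, given above, are 0.354%, 1.19% and 0.0492%.

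The week 15 arrays differed from each other more than those of the other weeks did, with an SD of log2 differences over all features of 0.510 against 0.299 at week 6 and 0.303 at week 9. Against the arrays of weeks 6 and 9, this SD was 0.402 to 0.477 for the first week 15 array and 0.557 to 0.615 for the second. Of 11 skeletal muscle markers, 6 were tested. The log2 of their summed signals was 13.35 on the first week 15 array, 8.33 on the second and 8.91 to 8.98 on the other 4. The muscle actin gene Acta1 was detected on that first array alone. Without the first week 15 array, Prf1, Klrk1 and Xcl1 all passed from week 6 to week 15, with log2 changes of -1.70, 0.90 and -1.43 (limma adjusted p = 0.0244, 0.0467 and 0.0386). Without the second week 15 array, 0 of the 7 passed, and the changes were -0.92, -0.12 and -0.01. From week 9 to week 15, Klrk1 and Xcl1 passed without the first week 15 array, at 1.21 and -1.39 (limma adjusted p = 0.0248 and 0.0298). With 1 array left at week 15, its spread is taken to be that of the other weeks. The calls without the first week 15 array thus rest at week 15 on the second, which lay further from the other weeks. Without the first, 1013 features passed between weeks 6 and 15 and 1999 between weeks 9 and 15, in place of 5 and 121. The part of the muscle signal in these values was not tested.

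**Figure D4:**
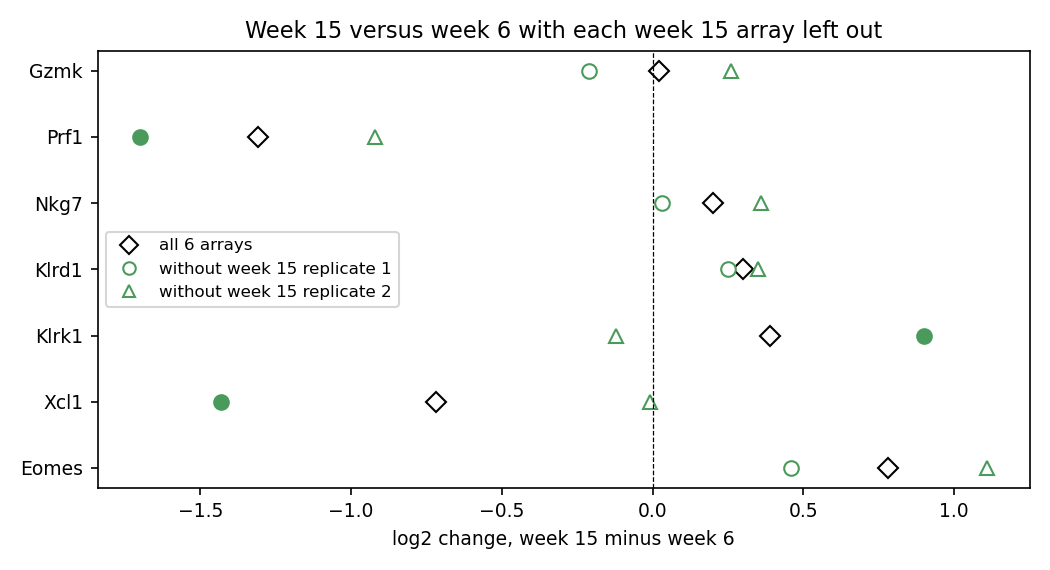
Log2 change from week 6 to week 15 for the 7 tested members with all 6 arrays (diamonds) and with 1 of the week 15 arrays left out (circles and triangles), filled where the limma adjusted p was under 0.05. Xcl1 lies at -1.43 without the first week 15 array and at -0.01 without the second.

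Markers of the cells that could carry these genes were mixed. T cell genes were bright, with 18 of 21 on the array detected on all 6 arrays. For the 19 tested, the log2 of the summed signals, which the brightest genes dominate, was 15.01 and 15.09 at week 6. It was 15.52 and 15.21 at week 9, and 15.27 and 15.20 at week 15. The median log2 signal of the same genes was 9.89 and 9.82, then 9.90 and 9.52, then 10.14 and 10.38, highest at week 15. Cd8b1, a chain of the CD8 coreceptor of killer T cells, was detected on all arrays, while the probe of Cd8a was detected on 0. Of the defining NK markers, Klre1 was detected on all 6 arrays, Klrb1c (the receptor NK1.1) on 2, and Ncr1 and Klri2 on 0. Over the whole list of killer cell receptors and adaptors, 15 of 30 genes with a probe were above background throughout, among them Klrb1f, and 5 were detected on 0 arrays. No B cell, T cell or macrophage marker passed in any comparison. All 8 tested macrophage markers had a negative log2 change at week 9 against week 6, with a median of -0.73, and T cell markers had a median of 0.23. Of all features, 44.95% had a negative change there, and their median was 0.04 over the whole array. In this comparison the medians were 0.07 for B cell, -0.51 for neutrophil, -0.54 for fibroblast and -2.07 for fat cell markers. Of 4 tested fat cell genes, 1 passed as lower, where 0.354% of all features passed in either direction. At week 15 against week 6, where the brighter Prf1 probe had a log2 change of -1.31, all 8 macrophage markers were again negative, with a median of -0.74. Over all features the median was -0.02 in this comparison, and 53.13% were negative. There the medians were 0.07 for T cell, 0.09 for B cell, -0.69 for neutrophil, -0.78 for fibroblast and -1.82 for fat cell markers. The shares of these cells in the tissue were not measured, and their part in the members' values was not tested.

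Other genes of the cytotoxic pathway came from lists drawn up by function, with earlier results of these data known. Their counts beside those of all features are therefore a description and not a test of the lists. Of 14 tested genes of granules and killing, limma called 0 in any comparison, where 0.354%, 1.19% and 0.0492% of all features passed. In the order of comparisons above, 2, 4 and 4 had an unadjusted p under 0.05, against 16%, 23.2% and 14.4% of all features. The median log2 change of the 14 was 0.06, 0.01 and 0.15, against 0.04, -0.08 and -0.02 over all features. Gzmm, a granzyme of NK and gamma delta T cells, had log2 signals of 8.69 and 8.83 at week 6, 8.75 and 8.85 at week 9, and 9.57 and 9.25 at week 15, both week 15 arrays lying above the rest. Its change from week 9 was 0.61 (limma adjusted p = 0.123). Ifng, the cytokine that cytotoxic cells secrete, had 5.95 and 6.11, then 6.75 and 6.52, then 7.31 and 6.94, with no overlap between the weeks. Its change from week 6 to week 15 was 1.10 with an interval from 0.64 to 1.56 (limma adjusted p = 0.116). The same change was 0.40 with the authors' values and 0.64 on its other probe. On that probe weeks 6 and 9 overlapped, with 5.99 and 5.50, then 5.84 and 5.84. Serpinb6b, an intracellular protease inhibitor, had a log2 change of 0.80 from week 9 to week 15 (adjusted p = 0.0923), Stxbp2, a protein of granule fusion, one of -0.47 (adjusted p = 0.189). Ctsc, which activates granzymes, had a log2 change of -0.55 from week 6 to week 9, and Rab27a, which docks granules, one of 0.41, neither past the threshold. With the authors' values, Serpinb6b had 0.51 and Ctsc -0.26, and the other tested Ctsc probes had -0.35 and -0.59.

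Of 19 tested receptors and adaptors of killer cells, limma called 0, where 0.354%, 1.19% and 0.0492% of all features passed. An unadjusted p under 0.05 was found for 2, 2 and 3 of them, against 16%, 23.2% and 14.4% of all features. The median log2 change of the 19 was 0.05, -0.10 and 0.20. Klrg1, an inhibitory receptor of mature effector cells, had log2 changes of 0.44 from week 6 to week 9 and -0.71 from week 9 to week 15 (limma adjusted p = 0.339 and 0.116). Sh2d1a, an adaptor of SLAM family receptors, had a log2 change of 0.62 and Hcst, the signalling partner of NKG2D, one of 0.41 from week 6 to week 9. At week 15 against week 6 the change was 0.75 for Cd226, an activating receptor, and -0.83 for the Fc receptor gene Fcgr3. Fcgr3 had log2 signals of 9.25 and 8.97 at week 6 and of 8.72 and 7.85 at week 15. Its change was -0.58 with the authors' values. Klrb1c was narrowly above background on both week 6 arrays (detection p of 0.0468 and 0.0315) and on 0 of 2 week 15 arrays. Its week 9 arrays fell just short, at 0.0531 and 0.0693. The log2 change of Klrb1c from week 6 to week 15 was -0.45 (limma adjusted p = 0.312). With its week 15 signals raised to the lowest detected signal of each array, it was 1.04-fold lower. Slamf7, an activating receptor, had a log2 change of 0.39 from week 9 to week 15. With the authors' values these changes were 0.17 and -0.26 for Klrg1, 0.41 for Sh2d1a, 0.41 for Cd226 and 0.22 for Slamf7, and the other tested Cd226 probes had 0.43 and -0.15. Of the ligands, H2-T23 was the 1 tested gene, with log2 signals from 12.52 to 13.20 and a change of 0.20 from week 6 to week 9.

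Transcription factors and chemokine and homing genes gave 3 calls. From week 9 to week 15, 1 of the 10 factors and 1 of the 9 chemokine and homing genes passed, where 1.19% of all features did, and from week 6 to week 15, 0 and 1 passed, where 0.0492% did. In the order of comparisons above, 5, 4 and 3 of the 10 factors and 3, 4 and 5 of the 9 chemokine and homing genes had an unadjusted value under 0.05, against 16%, 23.2% and 14.4% of all features. The median log2 change of the 10 tested factors was -0.08, 0.33 and 0.27, and that of the 9 chemokine and homing genes 0.30, 0.34 and 0.52. Ikzf2, which encodes Helios, a factor of regulatory T cells and of some NK cells, had log2 signals of 6.47 and 6.64 at week 6, 5.50 and 5.39 at week 9, and 7.07 and 7.04 at week 15. The week 9 arrays were lowest and the week 15 arrays highest. It rose by 1.61 ± 0.16 (SE) from week 9 to week 15 (limma adjusted p = 0.019), 1 of 10 tested factors to pass there, and its change from week 6 to week 9 was -1.10 (adjusted p = 0.0541). The call from week 9 to week 15 was lost in 5 of 15 alternatives (limma adjusted p = 0.0711 to 0.21), those that left out a week 6 or a week 9 array or fitted the compared arrays alone. Leaving out a week 6 array gave the same fit there as the compared arrays alone, so these 5 are not separate checks. The change of Ikzf2 from week 9 to week 15 was 0.74 with no background correction and 0.52 with the authors' values. Zeb2, a factor of mature effector cells, had a log2 change of -0.81 and Gata3, of T helper and innate lymphoid cells, one of 0.81 from week 6 to week 9. The changes of Id2 and Bhlhe40 from week 9 to week 15 were 0.77 and 1.02, with no call. With the authors' values, Zeb2 had -0.49, Gata3 0.51 and Id2 0.50, and the other tested Id2 probe had 0.22.

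Cxcr6, a chemokine receptor of tissue-resident T and NK cells, had log2 signals of 5.10 and 5.12 at week 6, 5.53 and 5.40 at week 9, and 6.58 and 6.52 at week 15, so that the weeks did not overlap. It rose by 1.08 ± 0.16 (SE) from week 9 to week 15 (limma adjusted p = 0.039), 1 of 9 tested chemokine and homing genes to pass there. The call was lost in 9 of 15 alternatives (limma adjusted p = 0.0544 to 0.312), among them no background correction, with a change of 0.45, and the authors' values, with 0.31. Its change from week 6 to week 15 was 1.44 (adjusted p = 0.0587). Ccl3, a chemokine that NK cells and macrophages release, rose by 2.91 ± 0.29 (SE) from week 6 to week 15 (limma adjusted p = 0.0386), from 6.52 and 6.25 to 9.66 and 8.94. This call was lost in 7 of 15 alternatives (limma adjusted p = 0.0615 to 0.322), and the change was 1.68 with the authors' values. Ccl4, a related chemokine, had a log2 change of 1.62 over the same time (adjusted p = 0.103). The changes of the chemokine receptor gene Cx3cr1 and of the chemokine gene Cxcl9 from week 6 to week 9 were -0.67 and -0.65, and that of Cx3cr1 was -0.36 with the authors' values.

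Of 9 tested cytokine receptors and cytokines, limma called 0, where 0.354%, 1.19% and 0.0492% of all features passed. An unadjusted p under 0.05 was found for 3, 3 and 2 of them, against 16%, 23.2% and 14.4% of all features. The median log2 change of the 9 was -0.19, 0.33 and -0.06. Il12rb1, a chain of the interleukin 12 receptor, had log2 changes of 0.71 from week 6 to week 9 and 1.04 from week 6 to week 15 (limma adjusted p = 0.208 and 0.15). These were 0.19 and 0.31 with the authors' values, and 0.44 and 0.45 on its other tested probe. Il18r1 and Il18rap, both chains of the interleukin 18 receptor, had log2 changes of 0.66 and 0.68 from week 9 to week 15, and that of Il18rap was 0.23 with the authors' values. For Il21r, the interleukin 21 receptor, it was -0.88 from week 6 to week 9 and 0.68 from week 9 to week 15 (limma adjusted p = 0.0901 and 0.0955). These were -0.31 and 0.23 with the authors' values, -0.15 and 0.31 on a second Il21r probe detected on all 6 arrays, and -0.36 and 0.22 on another detected on 2. For the cytokine gene Il18 the change was -0.72 from week 6 to week 9.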

How the data were processed

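Synovial RNA was measured on 6 arrays. The authors deposited a table of 1 linear intensity per probe and array, and log2 values of the same arrays. For both, the normalization was not given in the sources used here. Log2 arrays had medians of 6.732 to 6.734, and each log2 column correlated best with its own array's intensities (r from 0.9958 to 0.9992). The mean RNA integrity number was 9.5 per the labels' protocols. The intensity table has 2 columns of samples not in the labels, not used here.

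Of 26821 rows, 1124 without a probe ID were control rows. Of these, 13 bright ones (over 5 median absolute deviations above the median) were left out, and 1111 gave the background. The other 25697 were corrected with the normal-exponential model (offset 16), quantile-normalized and log2-transformed (limma 3.58.1, R 4.3.3). Probes with a detection p under 0.05 on at least 2 arrays were kept (13633), and the brightest stood for its gene, giving 10167 features. The other Prf1 probe was fitted with all 13633 probes as features. Detected probes made up 47.88% to 50.73% per array, and median intensities ran from 99.07 to 129.5. The number of arrays limits the precision.

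Probe names came from GEO's platform table, which named 1 gene for 23978 probes, several for 0 and none for 1719. RefSeq gene IDs matched 23962, with 0 symbols changed. All members were named, and of each pathway list the genes past the threshold and, up to 3 per comparison, those with the smallest p. The other granzymes, Tbx21, Xcr1, the Cd3 chains and the cell type markers were singled out after their values were seen. All 6 arrays were fitted in 1 limma model with group means (lmFit and eBayes, 3 residual and 4.02 prior degrees of freedom), with Benjamini-Hochberg adjustment over all features and a threshold of 0.05. The fit was tested on simulated data. Members and lists were chosen with earlier results of these data known. Alternatives changed the background correction, scaling, filter, features, arrays and block, or left out each array.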

Additional observations from a re-analysis of the deposited data

How the results depend on the processing

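Over 15 alternatives, 294 of 315 changes of tested members kept direction and side of the threshold, 8 newly passed and 13 changed sign. Signs changed with scaling to the 75th percentile for Xcl1 from week 6 to week 9 (0.04) and for Gzmk from week 9 to week 15 (0.02). The others changed sign when 1 array was left out. From week 6 to week 9 these ran from -0.32 to 0.24 for Xcl1, -0.28 to 0.24 for Eomes and -0.53 to 0.05 for Klrd1. From week 9 to week 15 they ran from -0.46 to 0.32 for Prf1 and -1.39 to 0.03 for Xcl1, and from week 6 to week 15 from -0.21 to 0.26 for Gzmk and -0.12 to 0.90 for Klrk1. Between 0 and 1 members passed from week 6 to week 9 with an array left out, 0 to 2 from week 9 to week 15 and 0 to 3 from week 6 to week 15. Fitting only the arrays compared, 1 passed from week 6 to week 9, Prf1, with the same log2 change of -1.24 and a spread from 4 arrays. In each comparison, leaving out either array of the week not compared gave the same fit as using only the arrays compared. The 315 changes and the 8 that newly passed therefore count that fit more than 1 time. So do the counts out of 15 alternatives given for Ikzf2, Cxcr6 and Ccl3. The medians of the members moved by less than 0.4, their SD within weeks.

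Of all features, 36 passed in limma from week 6 to week 9 (1628 at an unadjusted p under 0.05), against 69 with no background correction, 83 with an offset of 50, 83 with scaling to the 75th percentile, 71 with every probe as a feature, 171 with only the arrays compared and 0 to 171 with an array left out. From week 9 to week 15, 121 passed, against 354 with no background correction, 265 with an offset of 50, 329 with the authors' values, 327 with every probe, 3 with only the arrays compared and 0 to 1999 with an array left out. From week 6 to week 15, 5 passed, against 29, 42, 10 and 15 with no background correction, an offset of 50, the scaling and the authors' values, and 3 to 1013 with an array left out. The cause of these shifts was not tested. With the replicate number as a block (replicate block), 8 and 34 features passed in the first and second comparison and 0 members in any. Same-numbered arrays deviated together with r of -0.039, 0.154 and -0.082 over the 3 pairs of weeks, so the numbers were not taken as pairs. The same alternatives were run for Ikzf2, Cxcr6, Ccl3 and the difference from the Cd3 chains after the data were seen. Gzma, Gzmb and Ncr1 lay at background, which limits what the arrays could show for them.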
